A study of Mus musculus with 8 samples.

Results

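The genes that make and carry taurine were followed in mouse brown adipose tissue (BAT) after thoracic aortic constriction (TAC) or sham surgery (Sham). The set holds 7 genes, Cth, Cbs, Cdo1, Csad, Ado, Gadl1 and Slc6a6, taken by name. Every probe that was not a control and whose RefSeq accession belongs to one of these genes was taken, which gave 11 of the 55681 probes on the array. Of these, 8 probes of 6 genes were bright enough to be tested, among 33364 probes tested in all.

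Taurine is a sulfur-containing amino sulfonic acid made from cysteine. Cysteine itself is made from methionine by transsulfuration, is oxidised to cysteine sulfinate, decarboxylated to hypotaurine and then oxidised to taurine, while a side route starts from cysteamine, a breakdown product of coenzyme A. Cells also take taurine up from blood through a sodium- and chloride-dependent transporter, and in mitochondria taurine modifies some transfer RNAs.

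The labels describe male C57BL/6NCrSlc mice kept at 23 °C on normal chow with 12 h of light a day. TAC, in which the aorta is narrowed so that the heart pumps against a higher pressure, or Sham surgery, the control operation, was done at 11 weeks of age, and BAT was taken at 13 weeks of age. For the time after surgery the labels disagree, since the description line says 4 weeks while the treatment protocol and source name say 2 weeks, as the ages do. Each group has 4 numbered samples, each with 1 Agilent array, and the sources used here do not say more on whether each sample is 1 mouse. The p-values below therefore judge a group difference against the spread between these samples.

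Scanner intensities were used for 7 arrays (all 4 of TAC, and Sham without replicate 1), and a deposited table of scaled intensities for all 8. A scanner value below is a log2 intensity relative to its own array, where 0 is the array's 75th percentile. Table values are given in log2 too, and a difference is TAC minus Sham on the log2 scale. For these genes the table values run higher: Cdo1 on Sham replicate 2 read 6.95 in the scanner values and 7.15 in the table. Arrays are therefore compared within the scanner values or within the table. Because each probe binds with its own strength, values are compared between arrays and not between probes. Between 54.5% and 64.3% of spots were well above background per array, and the 75th percentile lay between 453.6 and 604.5 intensity units. All 7 scanner arrays came from 1 slide with the Sham arrays in one row and the TAC arrays in the other, so slide row and surgery cannot be told apart. TAC replicate 1 stood apart: on the leading principal component, with 39.3% of the variance, it lay at 89.6, the other TAC arrays between -8.58 and 3.58, and the Sham arrays between -32.6 and -20.3. Where leaving it out moved a value by much, the value without it is given too. With Sham replicate 1 included, in the table, that array lay at -3.16, among TAC replicates 2 to 4 (-7.07 to 4.39) and apart from the other Sham arrays (-32.6 to -21.1), so the Sham arrays did not stand together over 8 arrays. In whole tissue, fewer cells of a type and less RNA per cell cannot be told apart.

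No probe of the taurine genes passed an adjusted p of 0.05 (limma, Benjamini-Hochberg adjustment over all 33364 probes), and 0% of all probes did. The transsulfuration genes Cth and Cbs were at higher values after TAC, by 0.30 and 0.43, whereas Cdo1, Csad, Ado and Slc6a6 lay between -0.18 and -0.08 and had intervals that include 0. At an unadjusted p under 0.05, 3 of the 8 member probes were higher after TAC, 2 of Cth and 1 of Cbs, where 4.38% of all probes were. None of the 8 was lower at that threshold, where 8.43% of all probes were. Counted by gene, with the probe of highest mean intensity standing for each gene, 2 of 6 members were higher at that threshold and 3.97% of 14990 genes were. The count of 3 probes was 0 without Sham replicate 3 or without TAC replicate 2, and 1 without Sham replicate 4. Of all probes, 902 of 32914 were higher at that threshold without Sham replicate 3. Without TAC replicate 2 it was 1448 of 33112, and without Sham replicate 4 it was 1104 of 32388. In the table of 8 arrays the member count was 2, both of Cth, where 4.65% of all probes were higher at that threshold, and 0 were lower, where 9.56% were. The median difference of the 6 genes was -0.09, against -0.03 over all genes, and 0.04 without TAC replicate 1.

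**Figure D1:**
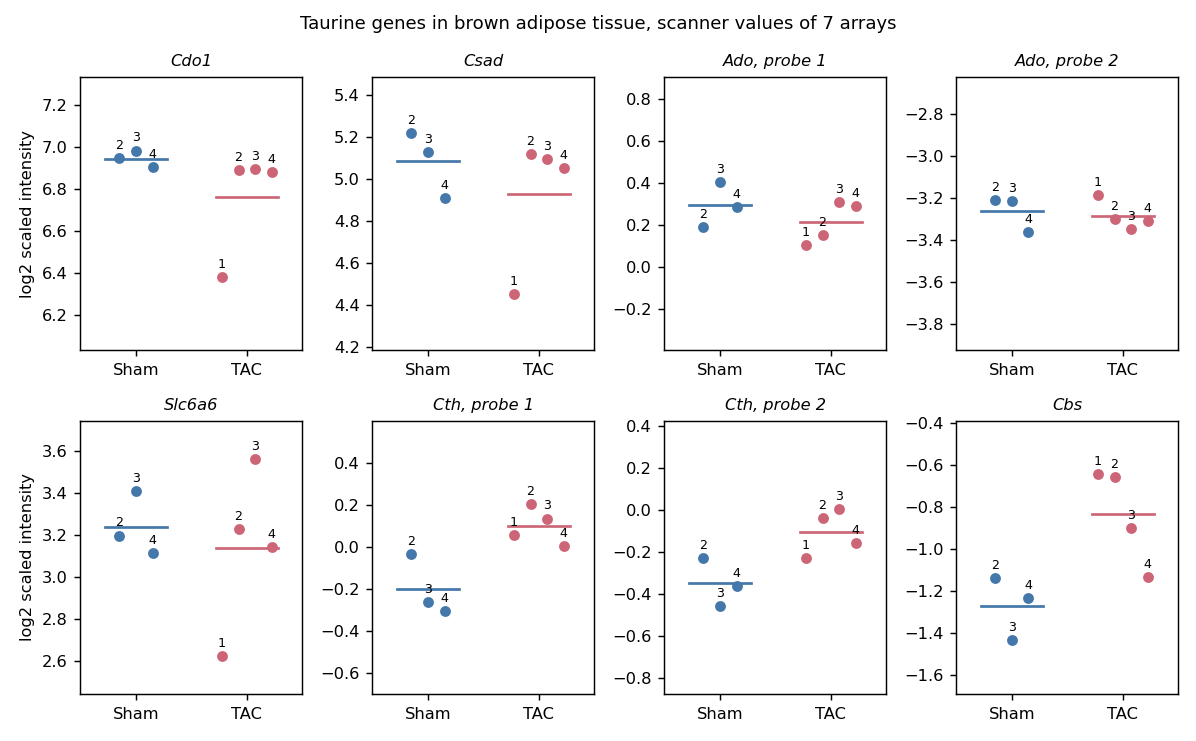
Each panel plots 1 probe on the 7 scanner arrays, with log2 intensity relative to the array's 75th percentile on the vertical axis and Sham and TAC side by side. Points are arrays with their replicate numbers and lines are group means, and every panel has its own axis range. TAC replicate 1 is the lowest array for Cdo1, Csad and Slc6a6, and the TAC arrays of Cth, probe 1, lie above all Sham arrays.

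Cystathionine gamma-lyase (Cth) releases cysteine from cystathionine, the last step of transsulfuration, and also forms hydrogen sulfide. Its first probe (A_55_P1959923) read -0.034, -0.26 and -0.30 on Sham replicates 2, 3 and 4. It read 0.057, 0.20, 0.13 and 0.0028 on TAC replicates 1 to 4. Every TAC array was above every Sham array, although the nearest pair, TAC replicate 4 and Sham replicate 2, was only 0.037 apart. Such a separation was seen at 5.59% of all probes. The mean was -0.20 ± 0.15 in Sham (SD, n = 3) and 0.099 ± 0.087 in TAC (SD, n = 4). The difference was 0.30 (SE 0.10, 95% interval 0.062 to 0.54), or 1.23-fold, with a limma p of 0.0205 that became 0.322 after adjustment. The two-sided exact permutation p was 0.0286, the smallest that 7 arrays allow.

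In the table, which adds Sham replicate 1, this probe again had all 4 TAC arrays (0.18 to 0.38) above all 4 Sham arrays (-0.11 to 0.17), with a gap of 0.0038 between the groups. That ordering was found at 3.53% of all probes in the table. The difference over 8 arrays was 0.27 (SE 0.091, limma adjusted p = 0.272), with an exact permutation p of 0.0286. TAC replicate 1 was no outlier for this gene, and the difference without it was 0.31 (limma adjusted p = 0.313).

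The second Cth probe (A_51_P431737) pointed the same way with a smaller separation. Its Sham values were -0.23, -0.46 and -0.36, and its TAC values were -0.23, -0.039, 0.0037 and -0.16. The groups overlapped by a hair, since the lowest TAC array minus the highest Sham array was -0.0022. The difference was 0.24 (SE 0.099, 95% interval 0.0095 to 0.48, limma p = 0.0434, adjusted p = 0.375, exact permutation p = 0.0857). Both probes measure the same gene on the same arrays and are not separate evidence.

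Cystathionine beta-synthase (Cbs) joins homocysteine and serine to cystathionine, the entry into transsulfuration. Its probe read -1.138, -1.435 and -1.234 on Sham replicates 2, 3 and 4, and -0.64, -0.66, -0.90 and -1.135 on TAC replicates 1 to 4. The groups did not overlap on these arrays, but TAC replicate 4 exceeded Sham replicate 2 by only 0.0026. The difference was 0.43 (SE 0.15, 95% interval 0.085 to 0.78), or 1.35-fold, with a limma p of 0.0216, an adjusted p of 0.327 and an exact permutation p of 0.0571.

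For Cbs the eighth array mattered. Sham replicate 1, measured only in the table, read -0.486, within the TAC range of -0.963 to -0.456 in that table and well above the other Sham arrays (-1.245 to -0.932). With it the difference was 0.27 (SE 0.18, 95% interval -0.15 to 0.69, limma p = 0.172, adjusted p = 0.518), and the exact permutation p was 0.229. The groups, separate in the scanner values, overlapped over all 8 arrays. Without TAC replicate 1, the highest array, the scanner difference was 0.37 and the table difference 0.21.

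**Figure D2:**
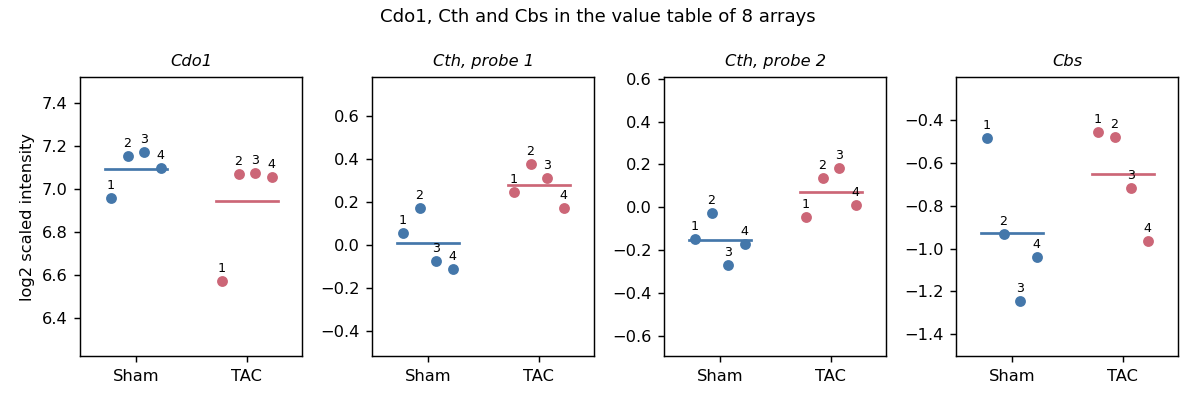
The deposited table adds Sham replicate 1 to the comparison, here for Cdo1, both probes of Cth, and Cbs, with log2 scaled intensity on the vertical axis, 1 point per array and lines at group means. Sham replicate 1 lies among the TAC arrays for Cbs (-0.486) and below TAC replicates 2 to 4 for Cdo1 (6.96), while Cth, probe 1, keeps all TAC arrays above all Sham arrays.

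The promoter of Cbs is shown because Cbs had the largest difference of the tested members, and those of Csad because its product makes hypotaurine, the direct precursor of taurine. The sequences are the 250 bases before a gene's start in RefSeq, build GRCm38.p6, and 4 of the 7 genes were matched in that table, with 2 starts listed for Csad. Cbs lies on the minus strand with its window at chr17:31637206-31637455, and the Csad windows are on the minus strand at chr15:102189044-102189293 and chr15:102205053-102205302. Capitals mark matches to the GC box GGGCGG, the E-box CACGTG, the cAMP response element TGACGTCA or the C/EBP-ATF response element TGATGNAA, each searched on both strands, so that GGGCGG on the other strand appears as CCGCCC.
Cbs: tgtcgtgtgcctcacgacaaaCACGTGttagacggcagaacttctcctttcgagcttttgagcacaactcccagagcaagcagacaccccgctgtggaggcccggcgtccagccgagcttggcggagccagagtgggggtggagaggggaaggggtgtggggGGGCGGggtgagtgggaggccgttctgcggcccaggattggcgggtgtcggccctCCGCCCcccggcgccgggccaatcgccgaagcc
Csad, first start: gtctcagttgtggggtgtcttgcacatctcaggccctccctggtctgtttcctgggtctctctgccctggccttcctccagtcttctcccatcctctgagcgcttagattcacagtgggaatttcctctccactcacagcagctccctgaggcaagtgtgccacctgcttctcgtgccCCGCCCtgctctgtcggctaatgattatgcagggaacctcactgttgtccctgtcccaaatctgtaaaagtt
Csad, second start: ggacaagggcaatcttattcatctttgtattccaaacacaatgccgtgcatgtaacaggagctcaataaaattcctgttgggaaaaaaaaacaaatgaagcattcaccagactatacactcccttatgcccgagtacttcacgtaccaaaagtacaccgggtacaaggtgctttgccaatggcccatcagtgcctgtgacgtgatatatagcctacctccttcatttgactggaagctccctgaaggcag

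The Cbs window was 68% G and C and held 2 GC boxes, 88 to 83 and 33 to 28 bases before the start, and 1 E-box 229 to 224 bases before it. The first Csad window held 1 GC box 72 to 67 bases before the start, and the second held none of the 4 motifs, nor did the windows of Ado and Gadl1. None of these matches overlapped another. Over 32851 RefSeq promoter windows of the same length, 32.7% held a GC box, 6.02% the E-box, 1.55% the cAMP response element and 3.45% the C/EBP-ATF response element. A match describes the letters in the window and is not a binding site shown by these data.

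Cysteine dioxygenase (Cdo1) turns cysteine into cysteine sulfinate and so opens the main route to taurine. Its probe read 6.95, 6.98 and 6.91 on Sham replicates 2, 3 and 4. It read 6.38, 6.89, 6.89 and 6.88 on TAC replicates 1 to 4. All 4 TAC arrays were below all 3 Sham arrays, as at 10.4% of all probes, but TAC replicates 2 to 4 lay close to the Sham mean of 6.94 and TAC replicate 1 was far below. The difference was -0.18 (SE 0.14, 95% interval -0.52 to 0.16, limma adjusted p = 0.61), with an exact permutation p of 0.20. Without TAC replicate 1 it was -0.057 (95% interval -0.22 to 0.11).

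In the table, Sham replicate 1 read 6.96 for Cdo1, below the 7.053 to 7.075 of TAC replicates 2 to 4, so the groups overlapped over 8 arrays, where 6.29% of all probes had every TAC array below every Sham array. The difference there was -0.15 (SE 0.13, limma adjusted p = 0.612), and -0.029 without TAC replicate 1.

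Cysteine sulfinate decarboxylase (Csad) makes hypotaurine. It read 5.22, 5.13 and 4.91 on the Sham arrays and 4.45, 5.12, 5.09 and 5.05 on the TAC arrays. TAC replicates 2 to 4 fell inside the Sham range and TAC replicate 1 below it. The difference was -0.16 (SE 0.19, 95% interval -0.59 to 0.28, limma adjusted p = 0.74, exact permutation p = 0.629) and turned to 0.0036 (95% interval -0.24 to 0.25) without TAC replicate 1.

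Gadl1 encodes a related decarboxylase that acts on aspartate and cysteine sulfinate. All 3 of its probes were too dim to test. One of them was well above background on Sham replicate 2 (-4.28) and on no other array, and the other two on none. The lowest signal that counted as well above background was between -5.16 and -4.29 across arrays, and no fold is given, since the bound would be under 1.

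2-Aminoethanethiol dioxygenase (Ado) oxidises cysteamine to hypotaurine. Its first probe read 0.19, 0.40 and 0.29 on the Sham arrays and 0.11, 0.15, 0.31 and 0.29 on the TAC arrays, with overlapping groups. The difference was -0.080 (SE 0.096, 95% interval -0.30 to 0.15, limma adjusted p = 0.743), and -0.044 without TAC replicate 1. Its second, dimmer probe ranged from -3.36 to -3.21 in Sham and from -3.35 to -3.19 in TAC, a difference of -0.026 (95% interval -0.23 to 0.17, limma adjusted p = 0.915) that was -0.059 without that array. Both intervals were narrower than those of Csad and Slc6a6.

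Slc6a6, the taurine transporter TauT, varied most of the tested members, by 0.94 between its lowest and highest array. It read 3.20, 3.41 and 3.11 on Sham replicates 2, 3 and 4, and 2.62, 3.23, 3.56 and 3.14 on TAC replicates 1 to 4. The TAC group held both the lowest and the highest array and enclosed the Sham range. The difference was -0.10 (SE 0.21, 95% interval -0.61 to 0.40, limma adjusted p = 0.859), and without TAC replicate 1 it was 0.071 (95% interval -0.27 to 0.42). In the table, where Sham replicate 1 was the highest array at 3.77, the difference was -0.20 (limma adjusted p = 0.665). That table difference was -0.031 without TAC replicate 1.

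A search for patterns like that of Slc6a6 over the 7 arrays, after each probe was centred on its own mean, was limited to probes with a gene symbol and not of a member. The closest were those of Synpo2, an actin-binding protein, Ipo7, a nuclear import receptor, and Src, a tyrosine kinase. Their root mean square differences from Slc6a6 were 0.059, 0.082 and 0.085, against a median of 0.31 over 33338 probes with or without a symbol. Slc6a6 itself deviated from its own mean by 0.27 on this measure. These likenesses rest on 7 arrays that share 1 outlying array, and are a description.

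**Figure D3:**
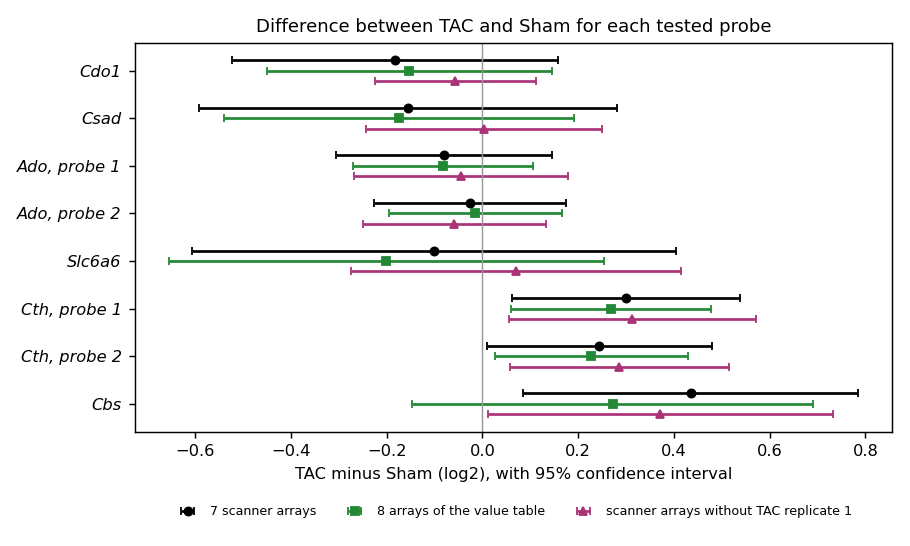
The horizontal axis gives the difference between TAC and Sham on the log2 scale for each tested probe, and bars are 95% confidence intervals from limma. Circles are the 7 scanner arrays, squares the 8 arrays of the table and triangles the scanner arrays without TAC replicate 1. The intervals of both Cth probes lie above 0 in all 3 fits, that of Cbs reaches below 0 in the table (-0.15), and those of the other genes include 0.

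TAC replicate 1 was low for Cdo1, Csad and Slc6a6, by -0.51, -0.64 and -0.69 relative to the average of TAC replicates 2 to 4. It was not low in the same way for the first probe of Ado (-0.14) or for Cth (-0.055 and -0.17), and for Cbs it was higher (0.25). On that array the 12 brown adipocyte markers, all detected on every array and including Ucp1, the uncoupling protein of thermogenesis, averaged -1.03 relative to Sham, against -0.43 to -0.041 on the other TAC arrays. Elovl3 (-5.54) and Dio2 (-2.59) carried much of that mean, Ucp1 was at -1.17, Adipoq at -0.023 and Pparg at 0.15, and the median marker was at -0.39. Their summed scaled intensity was 5050 to 6110 in Sham and 4060 to 5410 in TAC, with TAC replicate 1 the lowest.

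The 10 macrophage markers were 1.20 above Sham on TAC replicate 1, while TAC replicates 2 to 4 lay at -0.37 to -0.13, with sums of 44.9 to 47.5 in Sham and 38.3 to 81.3 in TAC. The B and T lymphocyte list, of which 7 of 10 markers were tested and the B cell markers Cd79a and Ms4a1 were among those that were not, was 1.01 above Sham there and between -0.27 and 0.027 on the others, with sums of 8.99 to 9.39 in Sham and 8.85 to 10.5 in TAC. This list was uneven on TAC replicate 1: the median marker was at 1.275, but Cd3e was at 0.090 and Cd4 at -0.063. Cd8a was well above background on only 3 arrays. The fibroblast and matrix list (6 of 6 tested) was 0.48 above Sham on TAC replicate 1. Its sums were 170 to 210 in Sham and 169 to 254 in TAC. The white adipocyte list (5 of 6 tested, Hoxc9 not) was 0.34 above Sham on TAC replicate 1. Its sums were 24.7 to 31.4 in Sham and 24.2 to 39.8 in TAC, with 25.8 on TAC replicate 1 and 39.8 on TAC replicate 2. Within the white adipocyte list on that array the median marker was at 0.74, Nnat at 2.61, Retn at -0.33 and Hoxc8 at -2.26. Hoxc8 was well above background on only 3 arrays. Its value on TAC replicate 1, -6.98, was under the lowest signal counted as well above background on any array (-5.16). The list mean of 0.34 includes this marker. The part of these cell types in the low values of Cdo1, Csad and Slc6a6 was not tested.

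Skeletal muscle markers, 10 of 10 tested, varied in both groups, with sums of 51.1 to 184 in Sham and 64.2 to 295 in TAC. Relative to Sham they were at 1.62, 1.09, -0.49 and 1.47 on TAC replicates 1 to 4. Mylpf went against these means on TAC replicates 2 to 4. It read -2.46, -2.46 and -2.32 in Sham, and -1.15, -2.93, -1.10 and -2.92 on TAC replicates 1 to 4. The part of muscle in the values of the taurine genes was not tested.

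**Figure D4:**
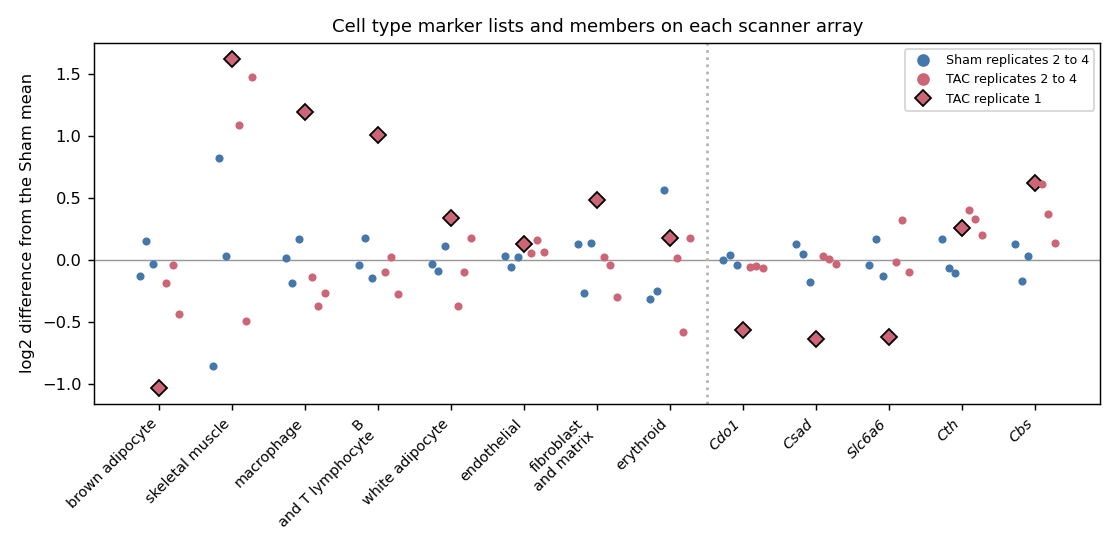
The vertical axis gives, for each scanner array, the mean log2 difference from the Sham mean over the tested markers of a cell type (left of the dotted line) and the same difference for 5 taurine genes (right of it, with the first probe of Cth). Diamonds are TAC replicate 1, at -1.03 for brown adipocyte markers, 1.20 for macrophage markers and 1.01 for lymphocyte markers, and the lowest of all arrays for Cdo1, Csad and Slc6a6.

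Around the taurine genes, 57 genes of sulfur amino acid and taurine metabolism were listed, of which 56 had a probe and 42 were tested. None passed an adjusted p of 0.05, as none of all genes did, and the median difference was -0.039, with 20 genes higher and 22 lower. The median was -0.020 without TAC replicate 1 and 0.020 in the table of 8 arrays. At an unadjusted p under 0.05, 2 of the 42 were higher, where 3.97% of all genes were, and 4 were lower, where 8.06% were. Every TAC array was above every Sham array for 3 of the 42 genes (Gss, Vnn1 and Pank1), as at 5.59% of all probes, and below for 4 (Hdc, Mto1, Gclm and Pank2), as at 10.4% of all probes. Over the 8 arrays of the table this held for Gss and Pank1 above, as at 3.53% of all probes. It held for Gclm and Hdc below, as at 6.29% of all probes. Gclm and Pank2 are named only because these counts hold them, after their values were seen.

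Upstream of Cbs, in the methionine cycle, 6 of 10 genes were tested, 4 higher and 2 lower, and none reached an unadjusted p of 0.05. Gnmt, which uses up S-adenosylmethionine, was at -0.38 (SE 0.23, limma adjusted p = 0.516), and at -0.19 without TAC replicate 1. Of the carriers of cystine and cysteine, 4 of 7 were tested, and the neutral amino acid transporters Slc1a5 and Slc1a4 were at 0.086 (limma adjusted p = 0.656) and -0.20 (limma adjusted p = 0.692). Without TAC replicate 1, Slc1a4 was at -0.020.

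Among the other fates of cysteine, 13 of 14 genes were tested. Glutathione synthetase (Gss) read 1.65, 1.51 and 1.46 on the Sham arrays and 1.92, 1.82, 1.76 and 1.90 on the TAC arrays. Its TAC arrays were all above its Sham arrays, here and in the table, with a difference of 0.31 (SE 0.088, limma adjusted p = 0.274). Gclm, the modifier subunit of the enzyme one step earlier in glutathione synthesis, lay on the other side: -0.22, -0.20 and -0.36 in Sham and -1.13, -0.54, -0.57 and -0.46 in TAC, a difference of -0.41 (SE 0.17, limma adjusted p = 0.383) that was -0.26 without TAC replicate 1. The catalytic subunit Gclc was at -0.029 (limma adjusted p = 0.916), and above 0 both without TAC replicate 1 (0.037) and in the table (0.0027). Sulfite oxidase (Suox), which oxidises sulfite from cysteine breakdown, was at -0.32 (SE 0.13, limma adjusted p = 0.366), and at -0.24 without TAC replicate 1.

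In the supply of cysteamine, 5 of 6 genes were tested. Vnn1, the pantetheinase that releases cysteamine, read -1.81, -2.23 and -1.94 in Sham and -0.51, -1.53, -1.01 and -1.31 in TAC. Its difference of 0.90 (SE 0.25, limma adjusted p = 0.262) was the largest of the list, and it was 0.71 without TAC replicate 1. The groups did not overlap on the 7 scanner arrays but did over the 8 of the table. The related Vnn3 was at -0.17 (limma adjusted p = 0.711), and at -0.025 without TAC replicate 1. Pank1, a pantothenate kinase of coenzyme A synthesis, was at 0.20 (SE 0.10, limma adjusted p = 0.46), whereas Pank2 was at -0.27 (SE 0.14, limma adjusted p = 0.462). Without TAC replicate 1 they were at 0.13 and -0.16.

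Of the genes that use taurine or oxidise hypotaurine, 5 of 7 were tested, with differences from -0.41 to -0.050, and 55.1% of all genes were below 0. Acnat2, named after its value was seen, was at -0.26 here and at 0.039 in the table of 8 arrays. Fmo1, a monooxygenase that oxidises hypotaurine to taurine, read 5.54, 5.55 and 5.54 in Sham and 4.73, 5.56, 5.47 and 5.49 in TAC. As with Cdo1 and Csad, TAC replicate 1 stood below the rest, and the difference of -0.23 (SE 0.21, limma adjusted p = 0.652) was -0.036 without it. Mto1, which takes part in the taurine modification of mitochondrial transfer RNAs, was different in that all 4 TAC arrays were low: 1.73, 1.88 and 1.75 in Sham against 1.17, 1.43, 1.41 and 1.49 in TAC, a difference of -0.41 (SE 0.10, limma adjusted p = 0.229). Without TAC replicate 1 the difference of Mto1 was -0.34, and over the 8 arrays of the table its groups overlapped. Gtpbp3, the partner of Mto1 in that modification, was at -0.050 (limma adjusted p = 0.89), and at -0.030 without TAC replicate 1. Pter, which hydrolyses N-acetyltaurine, was at -0.20 (limma adjusted p = 0.50), and at -0.27 without that array.

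Other taurine carriers and channels, 8 of 9 tested, had 5 genes higher and 3 lower. The volume-regulated anion channel subunits Lrrc8c (0.26, SE 0.15, limma adjusted p = 0.501) and Lrrc8d (-0.13, SE 0.10, limma adjusted p = 0.611) had the smallest p-values. Of the decarboxylase relatives of Csad, only histidine decarboxylase (Hdc) was bright enough to test, 1 of 4. It read 0.76, 0.82 and 0.57 in Sham and 0.26, 0.37, 0.33 and 0.32 in TAC, all TAC arrays below all Sham arrays here and in the table, with a difference of -0.40 (SE 0.090, limma adjusted p = 0.201).

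**Figure D5:**
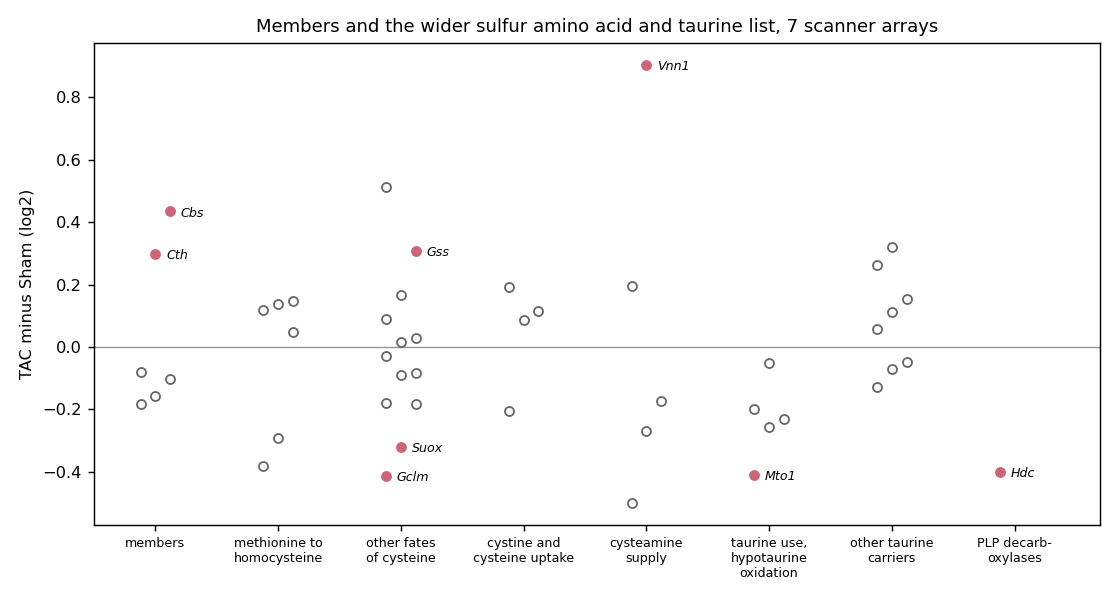
Each point is 1 gene, the vertical axis is the difference between TAC and Sham on the log2 scale over the 7 scanner arrays, and columns are the taurine genes (members) and the 7 groups of related genes. Filled points had an unadjusted limma p under 0.05, and none passed after adjustment. Vnn1 (0.90), Cbs (0.43), Gss (0.31) and Cth (0.30) are the filled points above 0, and Mto1, Gclm, Hdc and Suox those below.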

How the data were processed

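BAT RNA was labelled with Cy3 and hybridised to Agilent arrays, and the spots were read with Agilent Feature Extraction 10.7.1.1, per the submitters' processing notes. The authors deposited background-subtracted intensities of 7 arrays, not scaled between arrays, and a table of intensities for 8 arrays with 1 value per probe. How the table was made is not given in the sources used here. Above 100 units, it equalled the scanner intensity times a factor fixed for each array, within 1%, for at least 99.8% of values, and its columns had 75th percentiles of 1.002 to 1.004. Sham replicate 1 was used only through this table. No 2 arrays held identical values.

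From the 59305 spots that are not controls, outlier spots were left out (134 to 191 per array). Intensities were converted to log2, the array's 75th percentile was subtracted and spots of a probe were averaged. A probe had to be well above background on 3 or more arrays and have values on 2 or more arrays per group. Tests used limma 3.58.1 (lmFit, eBayes; R 4.3.3), Benjamini-Hochberg adjustment and no replicate block. Exact permutation tests were two-sided, over 35 splits of 7 arrays or 70 of 8, and can give no p below 0.0286. The fit was tested on simulated data. Symbols came from a RefSeq table of GRCm38.p6 by accession without version, which named 50.3% of the probes. The number of arrays limits the precision.

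The genes and lists were chosen with earlier results of these data known. All members were named with every probe, as were the 2 smallest p-values of each related group, Fmo1, and the 3 probes with a symbol most like the member of widest range. Alternatives were normexp background correction (offset 50), median centring, quantile normalization, the table over 8 and over 7 arrays, other filters, outlier spots kept, an intensity trend, the methods' t-test, array weights, the replicate block and leaving out each array. Replicate numbers were not taken to pair the arrays. Not every gene that the rule names is reported here.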

Additional observations from a re-analysis of the deposited data

Results flagged for a closer look

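In 2 of 16 groups of TAC or Sham values looked at for the tested probes, 1 array lay far from the others. Chance alone gives this in about 1 of 20 groups, a rate that takes no array to stand apart as a whole. Both cases were TAC replicate 1, which did stand apart over all probes. How many of all probes had such a gap on that array is not given here. For Cdo1 the far array was TAC replicate 1, at 6.38 against 6.88 to 6.89 on the other TAC arrays, and its gap was 0.976 of the group's range. For Csad it was the same array, at 4.45 against 5.05 to 5.12, with a gap of 0.90 of the range. Groups of 3 arrays were not examined in this way.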

How the results depend on the processing

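No probe of the taurine genes and no gene of the wider list passed an adjusted p of 0.05 under any alternative run. Of 170 differences of member probes under alternatives, 165 kept their direction and their side of the threshold, and 5 changed sign. Those were Csad at 0.0036 and Slc6a6 at 0.071, each without TAC replicate 1 and with the replicate block over 7 arrays, and Slc6a6 at 0.0079 with array weights. The replicate block over 7 arrays gave the same values as leaving out TAC replicate 1, which has no partner of its number among the scanner arrays. The numbers were not taken to pair the arrays: deviations of arrays with one number correlated between -0.026 and 0.0017 in the scanner values, and in the table at 0.27 for number 1 and 0.020 to 0.056 for the others. At an unadjusted p under 0.05, 2 member probes were higher in the table of 8 arrays and 1 with the replicate block on that table, and 3 in the scanner values with and without the block. Of all 33364 probes, 1552 were higher in that table and 1579 with the block on it. In the scanner values 1462 were, and 1344 with the block. Leaving out single arrays gave 0 to 3 such member probes, where 902 to 1548 of all probes were higher. It gave 0 lower member probes throughout, where 1499 to 2978 of all probes were lower. It gave -0.23 to -0.057 for Cdo1, -0.24 to 0.0036 for Csad, -0.24 to 0.071 for Slc6a6, 0.25 to 0.38 and 0.19 to 0.30 for Cth, and 0.35 to 0.54 for Cbs. Over the other alternatives Cbs lay between 0.21 and 0.43, with unadjusted limma p-values of 0.0133 to 0.327. Over all probes, the count lower at an adjusted p under 0.05 was 1 with normexp, median centring or array weights, and leaving out single arrays gave 0 to 7 higher and 0 to 2 lower, the most without TAC replicate 4. No scaling moved the median of all probes by over 0.04. The methods' t-test placed 3 member probes higher and 0 lower at an unadjusted p under 0.05, and 0 after Benjamini-Hochberg adjustment. Of all 33364 probes it placed 1602 higher and 2587 lower at that unadjusted threshold. A slide block was not run, as there was 1 slide. The cause of these changes was not tested. Spots near background, as for Gadl1, limit what can be measured.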
